A study of Mus musculus with 2 samples.

Results

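Transcripts of 9 genes that encode ligands of T cell checkpoint receptors were followed in the myeloid cells of mouse tumours: Cd274 (PD-L1), Pdcd1lg2 (PD-L2), Cd80, Cd86, Icosl, Lgals9 (galectin-9), Vsir (VISTA), Pvr (CD155) and Nectin2 (CD112). The genes were chosen by symbol among the 33696 mouse gene features of the count matrix, and all 9 were found, each as 1 feature. They were read in the authors' cell types and clusters, in 10476 cells of 6 mice. The cells are CD45-sorted leukocytes from subcutaneous MC38 tumours, a colon carcinoma line, grown in mice whose Fc receptors are human. The antibodies bind mouse GITR, a costimulatory receptor of T cells, through a human IgG1 format. They were given as 100 µg per mouse in 2 injections spaced by 3 days, and tumours were taken 4 days post treatment.

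Every group carried the tumour and the human Fc receptors. Untreated, with PBS as the control named by the series, was represented by 1 mouse. N297A, described as an agonist without Fc function, was represented by 1 mouse. GA-aFuc, described as an agonist with enhanced Fc binding, and GITR/Syn GA-aFuc, described as Fc enhanced without agonism, had 2 mice each. The series planned 3 mice per treatment, and the mice of its other library were not analysed here. With 1 mouse, the Untreated or N297A treatment and that mouse cannot be told apart. A high level of the female transcript Xist was seen in GA-aFuc mouse 1 and GITR/Syn GA-aFuc mouse 1, at 567 and 551 CPM (counts per 1000000 UMIs) over all cells. The other 4 mice had at most 2.0 CPM, so each treatment with a pair of mice held both kinds, and both single mice had low Xist. The mice gave 1540 to 1925 cells and 17176544 to 25808043 UMIs each, and the median cell held 12075 UMIs. UMIs are unique molecular identifiers, which count single RNA molecules.

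PD-L1 and PD-L2 bind PD-1 on activated T cells and dampen signalling from the T cell receptor. CD80 and CD86 bind CD28, which costimulates, and CTLA-4, which restrains, while the ligand of ICOS costimulates activated T cells. Galectin-9 is a ligand of TIM-3, VISTA acts as an inhibitory ligand and receptor of myeloid cells, and CD155 and CD112 bind the activating receptor CD226 and the inhibitory receptor TIGIT. In tumours, macrophages, monocytes and dendritic cells are the main leukocytes that show these ligands to T cells, and mature migratory dendritic cells (mregDC) are known for high levels of several of them.

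Cd274 and Pdcd1lg2 lie next to each other on mouse chromosome 19 and were the only members that passed edgeR's test between treatments once genes of low count were left out. The 250 bases before their start sites are shown for this reason, from RefSeq's GRCm38.p6 annotation, both on the plus strand, 5′ to 3′. Capitals mark a match to 1 of 3 motifs searched on both strands. The Cd274 window is chr19:29367188-29367437 and the Pdcd1lg2 window is chr19:29410669-29410918.
Cd274: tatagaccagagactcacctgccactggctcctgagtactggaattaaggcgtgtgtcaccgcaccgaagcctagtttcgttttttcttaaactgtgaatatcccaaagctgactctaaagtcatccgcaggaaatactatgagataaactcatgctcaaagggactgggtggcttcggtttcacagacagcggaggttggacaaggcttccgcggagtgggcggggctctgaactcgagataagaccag
Pdcd1lg2: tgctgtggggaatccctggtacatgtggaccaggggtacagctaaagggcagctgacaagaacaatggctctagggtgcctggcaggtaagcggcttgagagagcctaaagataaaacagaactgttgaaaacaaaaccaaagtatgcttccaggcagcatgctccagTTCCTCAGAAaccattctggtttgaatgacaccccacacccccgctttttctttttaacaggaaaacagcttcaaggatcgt
The motif TTCNNNGAA, the form bound by STAT factors after interferon gamma, was in 7.02% of 32851 promoter windows of that length and in 0 of the 7 member windows in the table. The wider form TTCNNNNGAA, associated with STAT6, was in 5.85% of windows and in 1 member window, that of Pdcd1lg2, as TTCCTCAGAA with its first base 82 bases before the start. The pair GAAANNGAAA, bound by interferon regulatory factors, was in 2.98% of windows and in 1 member window, that of Lgals9. Cd86 and Pvr had no entry. These matches describe letters in short windows and were not tied to any measured binding.

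Mature dendritic cells led for 6 of the 9 genes by median over mice, as the plot of levels by cell type shows. Their range over mice lay apart from that of the next type for Cd274, Pdcd1lg2 and Cd80. For Icosl, Pvr and Nectin2 the ranges overlapped, and the 55 mregDC held 22, 62 and 9 UMIs of these genes. Levels are CPM of all UMIs in a mouse's cells of a type, and they are set beside the level in near-empty droplets (barcodes with at most 100 UMIs), which carry free RNA. Cell types were defined from the same counts, so these levels are a description without a test. Cells labelled monocytes held 4922 to 6065 CPM summed over 6 monocyte markers, against 141 to 811 CPM in cells labelled macrophages. The 8 macrophage markers summed to 17636 to 26753 CPM in macrophages and, still high, to 8518 to 13741 CPM in monocytes. Cells labelled cDC2 (conventional type 2 dendritic cells) held 520 to 1408 CPM of 5 cDC2 markers, and the 6 mregDC markers summed to 5143 CPM in mregDC. The cDC2 cells also held 2277 to 3123 CPM of the 6 monocyte markers, more than of their own. Their sum of the 8 macrophage markers was 565 to 1897 CPM.

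**Figure D1:**
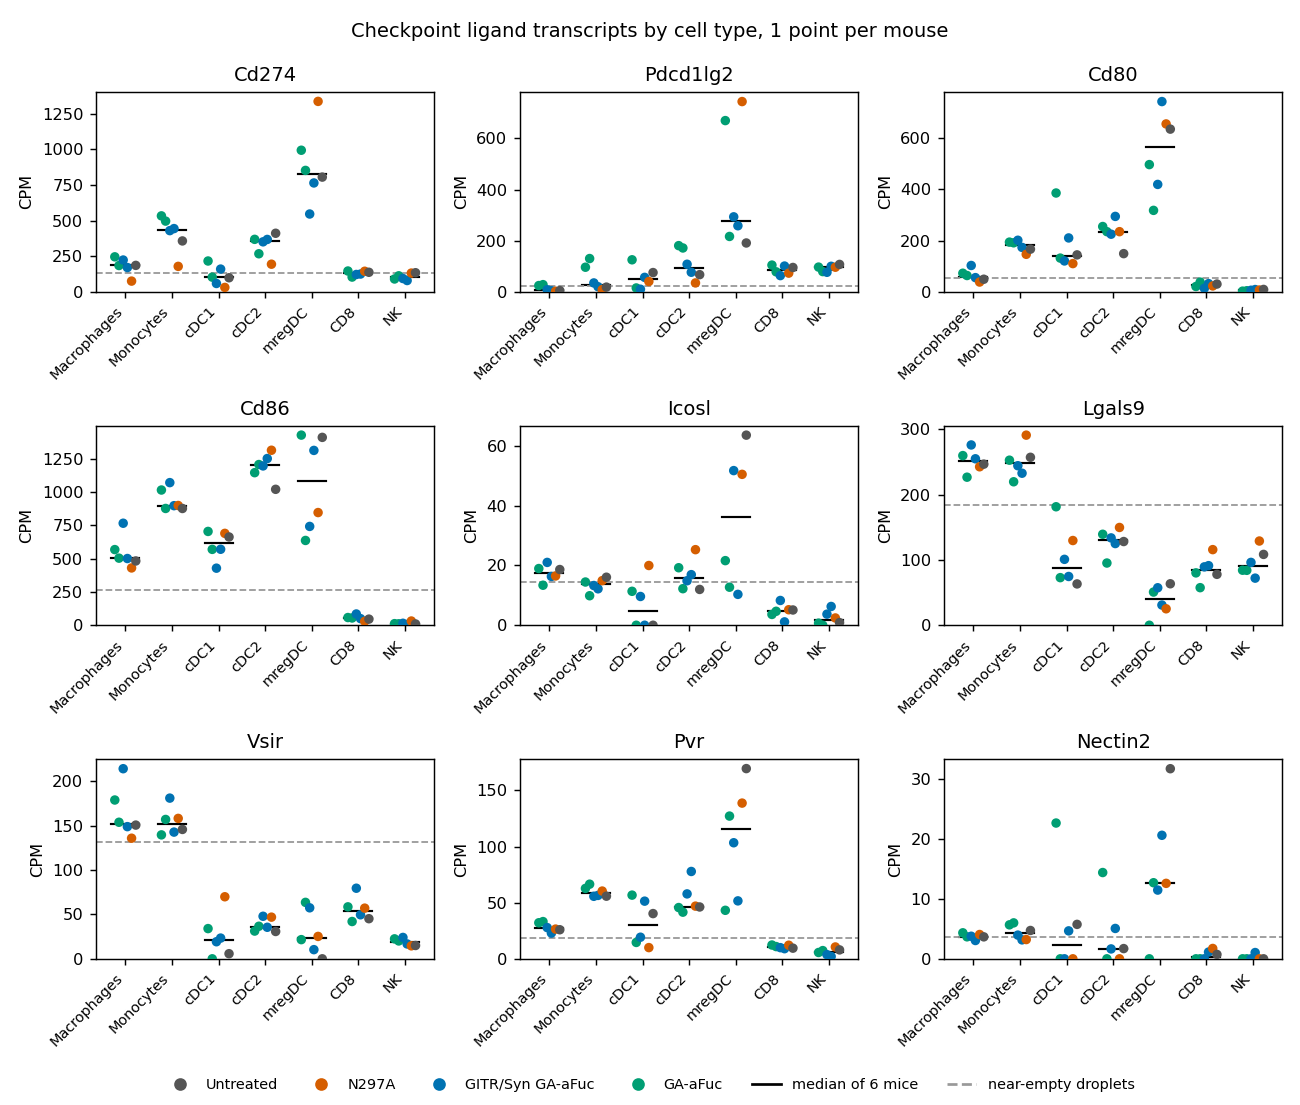
CPM of the 9 genes (y axes, linear and different per gene) in 7 cell types, with 1 point per mouse coloured by treatment, a black line at the median of 6 mice and a dashed line at the level of near-empty droplets. mregDC have the highest median for Cd274, Pdcd1lg2, Cd80, Icosl, Pvr and Nectin2, while Lgals9 and Vsir stand above the dashed line only in macrophages and monocytes.

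Cd274 was highest in mregDC, with a median of 829 CPM and 546 to 1337 CPM over mice, although a mouse could hold as few as 5 of these cells. Monocytes followed with a median of 436 CPM (178 to 533), then cDC2 with 359 CPM (193 to 411) and macrophages with 184 CPM (74.4 to 245). The ranges of mregDC and monocytes did not overlap, while those of monocytes and cDC2 did, and so did those of cDC2 and macrophages. CD8 T cells and NK cells had medians of 130 and 102 CPM, at or below the 130.5 CPM of near-empty droplets.

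Pdcd1lg2 had another order. mregDC again led, with a median of 276 CPM (191 to 744), and cDC2 held 91.8 CPM (34.3 to 180). NK cells, at 96.0 CPM (75.9 to 107), and CD8 T cells, at 86.3 CPM (63.0 to 104), were above monocytes at 26.9 CPM (8.0 to 130) and macrophages at 6.0 CPM (1.7 to 27.6) by median. The ranges of NK cells, cDC2 and CD8 T cells overlapped. Near-empty droplets had 23.8 CPM, so NK and CD8 T cells were above the level of free RNA in every mouse, and macrophages were below it outside the GA-aFuc mice. Over treatments, Pdcd1lg2 in NK cells and CD8 T cells had log2 fold changes of -0.23 to 0.0044 and -0.41 to 0.37, with edgeR adjusted p of 0.856 and 0.995 or more.

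Pdcd1lg2 in monocytes was the member that differed most between treatments. Its normalised level was 95.1 and 128.8 CPM in the GA-aFuc mice, 32.8 and 20.2 CPM in the GITR/Syn GA-aFuc mice, 8.2 CPM in the N297A mouse and 18.2 CPM in the Untreated mouse. These CPM are scaled by edgeR's trimmed mean of M-values (TMM) over the genes tested. Both GA-aFuc mice lay above all 4 others, and the N297A mouse was lowest. The Untreated mouse, the N297A mouse and GITR/Syn GA-aFuc mouse 2 were below the 23.8 CPM (unscaled) of near-empty droplets. Folds against Untreated or N297A thus start from a level below that of free RNA. Relative to Untreated, Pdcd1lg2 rose 6.17-fold in GA-aFuc, a log2 fold change of 2.62 ± 0.32 (SE; 2 mice against 1) with an edgeR adjusted p of 0.0116. With a term for high Xist in the fit it was 2.60 ± 0.29. Passing means an adjusted p below 0.05 over the 11920 genes tested in monocytes. In simulated counts of this design more false calls were made than that threshold allows, so an adjusted p just below 0.05 is less firm than its value. In this contrast 1 of the 9 members passed, as did 0.176% of all genes.

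The other contrasts rested on the same 6 mice. Against N297A, Pdcd1lg2 rose in GA-aFuc by 3.77 ± 0.35 on the log2 scale (edgeR adjusted p = 0.000907), and 2 of 9 members passed against 0.579% of genes. Against GA-aFuc it fell by 2.10 ± 0.24 in GITR/Syn GA-aFuc (edgeR adjusted p = 0.00343), where 1 of 9 members passed against 0.109% of genes. These contrasts share the GA-aFuc mice. GITR/Syn GA-aFuc against Untreated gave 0.53 ± 0.32 with an edgeR adjusted p of 1, and no member and 0% of genes passed, with 0 of 9 members at an unadjusted p under 0.05 and 0 called by DESeq2. N297A against Untreated, 1 mouse against 1, gave -1.14 ± 0.40, also without passing.

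**Figure D2:**
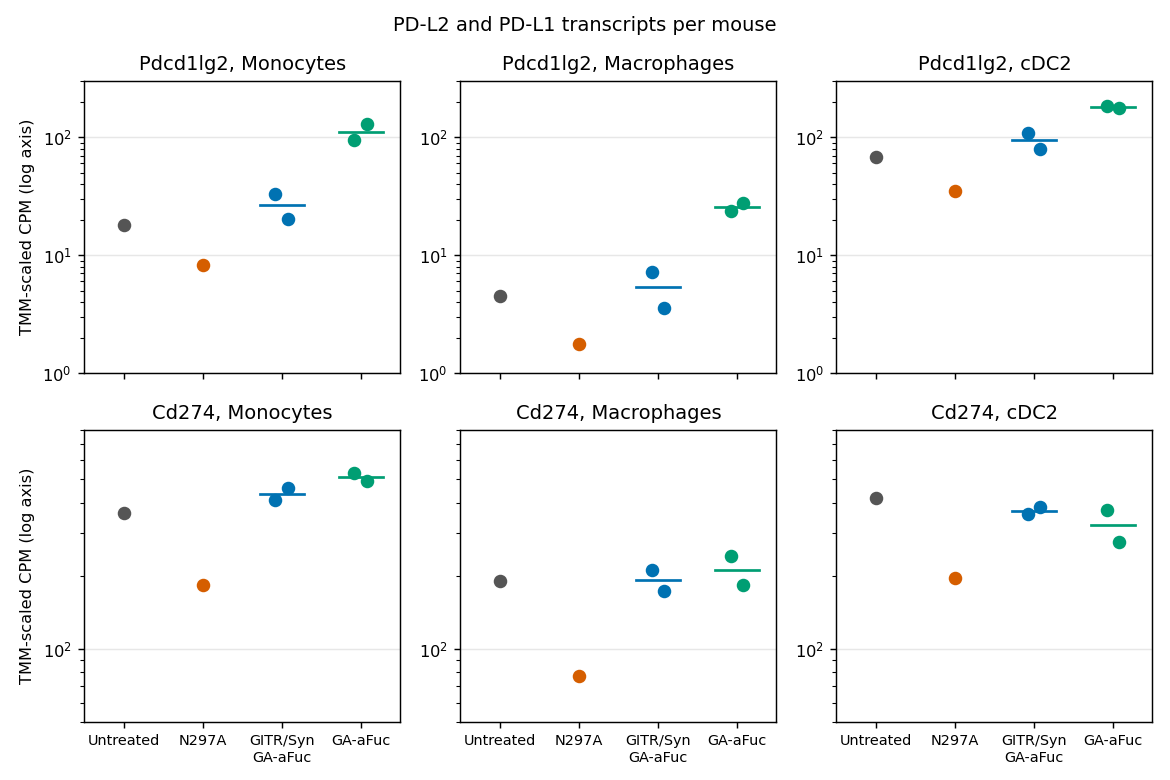
TMM-scaled CPM (log axes) of Pdcd1lg2 and Cd274 per mouse in monocytes, macrophages and cDC2, by treatment, with a line at the mean where a treatment has 2 mice. For Pdcd1lg2 the GA-aFuc mice are above all others in each cell type, and for Cd274 the N297A mouse is the lowest in each.

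Cd274 in monocytes differed by less, and mainly through the N297A mouse. The GA-aFuc mice had 528.9 and 492.1 CPM, the GITR/Syn GA-aFuc mice 410.6 and 459.2 CPM, the Untreated mouse 361.4 CPM and the N297A mouse 183.0 CPM (TMM-scaled). The N297A value stood apart below the others. Cd274 rose in GA-aFuc relative to N297A by 1.48 ± 0.22 on the log2 scale (edgeR adjusted p = 0.0101). Relative to Untreated the difference was 0.50 ± 0.20 with an edgeR adjusted p of 0.702. N297A against Untreated gave -0.98 ± 0.23, with an unadjusted p of 0.00122 that did not pass (edgeR adjusted p = 0.748). In that contrast 0 of 9 members and 0% of genes passed, 2 members had an unadjusted p under 0.05, and DESeq2 called 0.

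The mean of both Fc-enhanced treatments was also set against the mean of N297A and Untreated, 4 mice against 2. In monocytes Pdcd1lg2 rose by 2.15 ± 0.24 (edgeR adjusted p = 0.00208) and Cd274 by 0.87 ± 0.15 (edgeR adjusted p = 0.0286). So 2 of 9 members passed, against 0.344% of all genes. For Cd274 the lower mean came from N297A at 183.0 CPM more than from Untreated at 361.4 CPM, and for Pdcd1lg2 the higher mean came from GA-aFuc.

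Macrophages had far lower levels of Pdcd1lg2, again highest in GA-aFuc, without a call by edgeR. The GA-aFuc mice had 23.6 and 27.4 CPM, the GITR/Syn GA-aFuc mice 7.3 and 3.6 CPM, the Untreated mouse 4.5 CPM and the N297A mouse 1.8 CPM (TMM-scaled). Both GA-aFuc mice were above the others. The log2 fold change was 2.5 ± 0.42 against Untreated (edgeR adjusted p = 1) and 3.84 ± 0.48 against N297A (edgeR adjusted p = 0.240). Other transcripts differed between the same macrophage samples. The 6 monocyte markers summed to 811 CPM in GA-aFuc mouse 2 and to 141 to 278 CPM in the other 5 mice. Mrc1, a mannose receptor of macrophages, was 192 and 321 CPM in GA-aFuc, 206 and 106 CPM in GITR/Syn GA-aFuc, 54.2 CPM in N297A and 57.0 CPM in Untreated. The 8 macrophage markers, which include Mrc1, summed to 22411 and 17636 CPM in GA-aFuc and 19359 and 26166 CPM in GITR/Syn GA-aFuc. Their sums were 21466 CPM in N297A and 26753 CPM in Untreated. The part of these transcripts in the Pdcd1lg2 values was not tested. Over the 14340 genes tested in macrophages, 0.00697% passed for GITR/Syn GA-aFuc against GA-aFuc and 0% in the other 5 contrasts.

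The macrophage result depended on the tool and the fit. Among 54 tests of 9 members in 6 contrasts, edgeR passed 0, with 11 at an unadjusted p under 0.05, and DESeq2 passed 6. The share of all macrophage genes that DESeq2 passed, or that had such an unadjusted p, is not given here. These counts are thus not read as particular to the members. DESeq2 gave Pdcd1lg2 an adjusted p of 0.0110 against Untreated and 5.56e-08 against N297A at nearly equal fold changes, 2.5 and 3.84. With a term for high Xist, edgeR gave 2.35 against Untreated (adjusted p = 7.55e-10) and 3.69 against N297A (adjusted p = 9.65e-19), in a fit with 1 residual degree of freedom. For Cd274 the macrophage levels were 241.0 and 182.7 CPM in GA-aFuc, 210.3 and 173.6 CPM in GITR/Syn GA-aFuc, 190.4 CPM in Untreated and 76.9 CPM in N297A. Only the N297A mouse stood apart. Its log2 difference from GA-aFuc was 1.46 ± 0.27 (edgeR adjusted p = 0.573; DESeq2 adjusted p = 0.000170), and from Untreated -1.31 ± 0.30 (edgeR adjusted p = 1; DESeq2 adjusted p = 0.0241).

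A call in monocytes and none in macrophages did not amount to a difference between the types. The class-by-treatment term of a joint fit, with the mouse as a block, gave 0.11 ± 0.27 on the log2 scale for Pdcd1lg2 in GA-aFuc against Untreated (unadjusted p = 0.702, edgeR) and -0.07 ± 0.32 against N297A. For Cd274 the terms were 0.35 ± 0.19 and 0.04 ± 0.20. With edgeR, 0 of 54 terms for the 9 members passed and 2 had an unadjusted p under 0.05, while of 13854 genes 0.00722% passed for GITR/Syn GA-aFuc against GA-aFuc and 0% in the other contrasts.

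In cDC2, Pdcd1lg2 was 183.3 and 177.0 CPM in the GA-aFuc mice, 109.7 and 79.6 CPM in the GITR/Syn GA-aFuc mice, 34.9 CPM in the N297A mouse and 67.8 CPM in the Untreated mouse (TMM-scaled). The order of treatments was that of monocytes, from 33 to 52 cells per mouse. Pdcd1lg2 rose in GA-aFuc against N297A by 2.36 ± 0.37 (edgeR adjusted p = 0.00491), 1 of the 8 members tested against 0.567% of 7404 genes, Nectin2 being too low to test. It rose in the Fc-enhanced mean by 1.42 ± 0.25 (edgeR adjusted p = 0.00390), 1 of 8 members against 0.473% of genes. Against Untreated the value was 1.41 ± 0.32 and did not pass (edgeR adjusted p = 0.0537; 0.257% of genes passed). No member passed in the other 3 cDC2 contrasts, where 0.122% of genes passed for N297A against Untreated, 0.054% for GITR/Syn GA-aFuc against Untreated and 0.405% for it against GA-aFuc. With a term for high Xist, Pdcd1lg2 passed against Untreated as well (1.29 ± 0.33, edgeR adjusted p = 0.0321). Both cDC2 calls ended with DESeq2 (adjusted p = 0.594 and 1) and with equal numbers of cells per mouse (edgeR adjusted p = 0.0736 and 0.0831). With the 4 dendritic types summed, where mregDC weigh in, the value against Untreated was 1.06 ± 0.28 (edgeR adjusted p = 0.355), and no member passed in any contrast with either tool, with 5 of 54 tests at an unadjusted p under 0.05. Of 8557 genes, 0.0117% passed against Untreated, 0.0234% against N297A, for N297A against Untreated and for the Fc-enhanced mean, 0.14% for GITR/Syn GA-aFuc against GA-aFuc and 0% for it against Untreated. The share of these genes at an unadjusted p under 0.05 is not given here.

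In mregDC themselves the order of treatments was different and rested on 5 to 15 cells per mouse. Pdcd1lg2 was 670 and 216 CPM in GA-aFuc, 293 and 258 CPM in GITR/Syn GA-aFuc, 744 CPM in N297A and 191 CPM in Untreated. The N297A mouse, lowest in monocytes, macrophages and cDC2, was the highest here. It was also the highest for Cd274 in mregDC, at 1337 CPM against 546 to 994 CPM in the others.

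**Figure D3:**
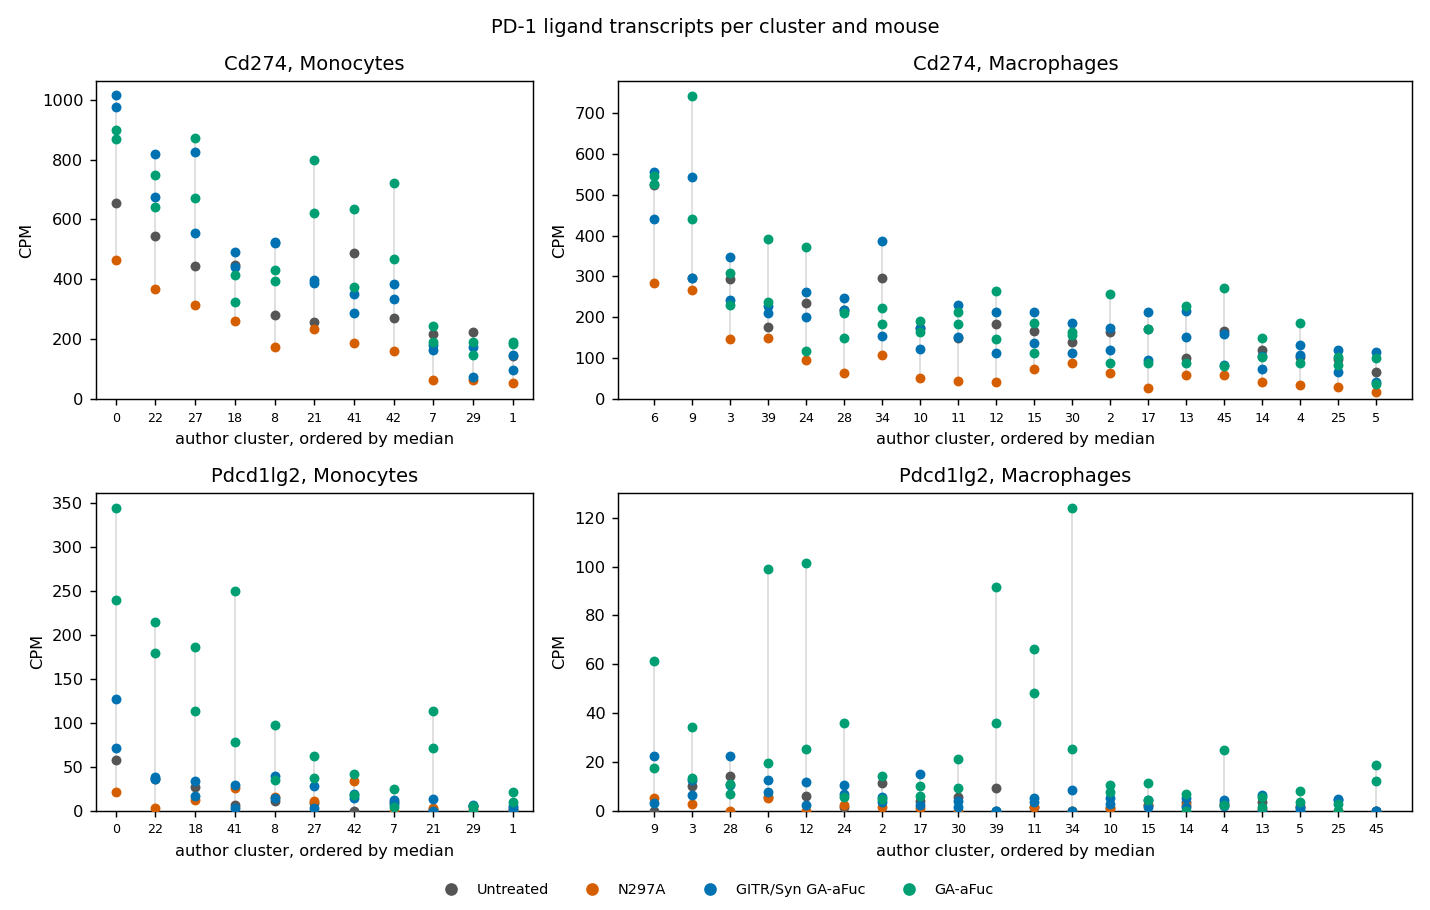
CPM of Cd274 and Pdcd1lg2 (y axes, linear) in each author cluster of monocytes (11) and macrophages (20) that had at least 10 cells in every mouse, with clusters ordered by median and 1 point per mouse coloured by treatment. The N297A points are the lowest in every cluster for Cd274, and the high Pdcd1lg2 points are GA-aFuc mice.

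Within the authors' clusters the pattern held across most of the monocytes. Clusters come from the same mice, so they are not replicates of a treatment. Cd274 was lowest in the N297A mouse in 11 of 11 monocyte clusters and 20 of 20 macrophage clusters that had at least 10 cells in every mouse, but in 1 of 2 cDC2 clusters. In cDC2 cluster 46 both GA-aFuc mice, at 177 and 198 CPM, were below the 218 CPM of the N297A mouse. For Pdcd1lg2, both GA-aFuc mice were above all 4 others in 7 of 11 monocyte clusters, 10 of 20 macrophage clusters and 2 of 2 cDC2 clusters. Monocyte cluster 0, with 447 cells, was highest for both genes among monocyte clusters of at least 30 cells, at 836 CPM of Cd274 and 155 CPM of Pdcd1lg2, and cluster 22 came second for both. The mregDC cluster held 815 CPM of Cd274 and 353 CPM of Pdcd1lg2. In cluster 0, Pdcd1lg2 was 240 and 344 CPM in GA-aFuc, 127 and 71.4 CPM in GITR/Syn GA-aFuc, 21.2 CPM in N297A and 58.1 CPM in Untreated. Monocyte cluster 29 went another way, with 5.6 and 0 CPM in GA-aFuc and 2.3 to 7.1 CPM in the others.

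When the 11 monocyte clusters with at least 10 cells in every mouse were weighted equally, so that their sizes did not count, Pdcd1lg2 was 76.4 and 118.8 CPM in GA-aFuc, 30.4 and 17.8 CPM in GITR/Syn GA-aFuc, 11.8 CPM in N297A and 15.4 CPM in Untreated. The GA-aFuc mean was 8.28 times the N297A value in this way, 13.6 times over all cells of the same 11 clusters and 14.1 times over all monocytes. The ratio to Untreated was 6.32, 6.35 and 6.30 in the same order. For Cd274 the ratio of GA-aFuc to N297A was 2.35 with equal weights, 2.75 over all cells of those clusters and 2.89 over all monocytes.

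The share of monocytes with a Pdcd1lg2 UMI, after every cell was thinned to 3000 UMIs, was 18.2% and 17.7% in GA-aFuc, 7.61% and 4.26% in GITR/Syn GA-aFuc, 5.49% in Untreated and 2.01% in N297A. Unthinned shares were 28.9% and 27.4%, 16.0% and 10.9%, 12.5% and 5.39% in that order. Cells with a UMI held on average 1.58 and 2.09 Pdcd1lg2 UMIs in GA-aFuc against 1.08 to 1.35 in the other mice. Both the share and the count per positive cell were thus higher in GA-aFuc. The mean GA-aFuc share was 3.27 times that of Untreated here and 6.45 times when cells were thinned to 1500 UMIs, where 9 Untreated monocytes held a UMI. In macrophages the thinned shares were 5.19% and 6.34% in GA-aFuc and 0.474% to 2.27% in the others. NK cells held 16.8% to 31.5%, so they are no background for this gene, and the lowest share of these types was that of macrophages in the N297A mouse. The thinning left out 2 to 29 monocytes per mouse with fewer UMIs. The median depth was 9025 UMIs in monocytes, 14327 in macrophages and 8402.5 in NK cells.

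For Cd274 the thinned share of monocytes with a UMI was 66.4% and 57.3% in GA-aFuc, 55.03% and 49.3% in GITR/Syn GA-aFuc, 52.3% in Untreated and 30.9% in N297A. The NK cell shares, 23.3% to 34.0%, mark the level of a type near the free RNA, and the N297A monocytes lay within that range. Monocytes with a Pdcd1lg2 UMI more often held a Cd274 UMI than the other monocytes of the same mouse in 6 of 6 mice, for example 83.6% against 62.6% in GA-aFuc mouse 1 and 61.5% against 51.8% in the Untreated mouse. Macrophages showed this in 4 of 6 mice, with 14.3% against 36.8% in Untreated (14 cells with Pdcd1lg2) and 0% against 18.7% in N297A (4 cells). In cDC2 it held in 5 of 6 mice, with 50% against 63.2% in GITR/Syn GA-aFuc mouse 1. Cells of 1 mouse share its library, so this is a description.

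Other transcripts moved with Pdcd1lg2 in monocytes. Mrc1 was 136 and 234 CPM in GA-aFuc and 11.5 to 41.7 CPM in the others, and rose against Untreated by 3.42 ± 0.51 (edgeR adjusted p = 0.0243). Mgl2, a lectin of cDC2 and some macrophages, rose by 2.35 ± 0.32 (edgeR adjusted p = 0.0168). The 8 macrophage markers, of which Mrc1 is 1, did not rise as a sum. They held 10526 and 8518 CPM in GA-aFuc monocytes and 9813 to 13741 CPM in the others. The 5 cDC2 markers, of which Mgl2 is 1, summed to 51.1 and 64.1 CPM in GA-aFuc monocytes and 24.5 to 39.9 CPM in the others. Without Mgl2 the sums overlapped, at 16.0 and 18.02 CPM against 10.4 to 18.1 CPM. Without Clec10a as well, the other 3 summed to 5.2 and 4.7 CPM in GA-aFuc, 7.0 and 4.6 CPM in GITR/Syn GA-aFuc, 10.5 CPM in N297A and 11.9 CPM in Untreated. The 6 mregDC markers summed to 34.3 and 23.0 CPM against 12.8 to 18.2 CPM. Of the mregDC markers, Ccr7 and Cacnb3 were under 1 CPM in monocytes, while all 5 cDC2 markers were above it. NK markers summed to 1.9 to 4.0 CPM and T cell markers to 3.9 to 8.8 CPM, so lymphocyte transcripts were close to 0. Neutrophil markers stood at 354 CPM in GA-aFuc mouse 2 against 47.7 to 86.7 CPM in the other 5 mice. The part of these in the Pdcd1lg2 result was not tested.

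In cDC2 the markers also differed between mice. The mregDC markers summed to 180 CPM in Untreated and 140 CPM in GITR/Syn GA-aFuc mouse 2 against 34.7 to 93.8 CPM in the other 4, and the cDC2 markers reached 1408 CPM in GA-aFuc mouse 2 against 520 to 822 CPM. Clec10a, a lectin that marks cDC2, rose against N297A by 2.09 ± 0.37 (edgeR adjusted p = 0.00584). Mgl2 rose against N297A too (log2 fold change 1.71 ± 0.40, edgeR adjusted p = 0.0405). The part of these shifts in the cDC2 result for Pdcd1lg2 was not tested.

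**Figure D4:**
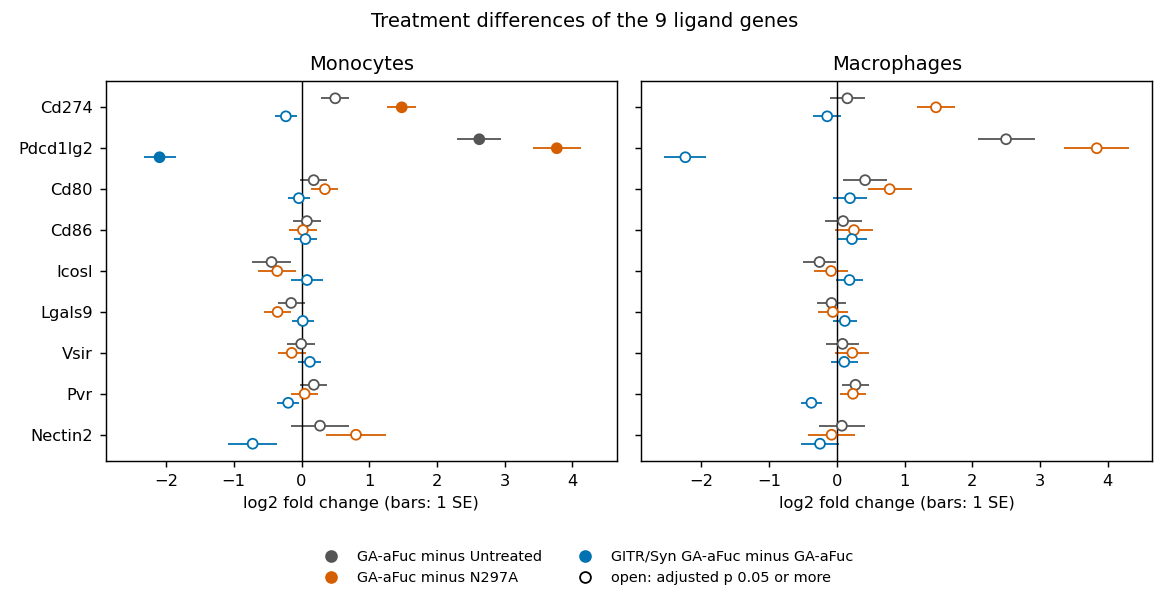
Log2 fold changes (x axis, bars 1 SE) of the 9 genes in monocytes and macrophages for 3 contrasts of the edgeR fits, with filled points for an adjusted p under 0.05. Filled points are Pdcd1lg2 in all 3 contrasts and Cd274 against N297A, all in monocytes, and the other 7 genes lie within -0.72 to 0.80.

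The 7 members that are not PD-1 ligands passed in no contrast with the filter on low counts. In monocytes none of 42 edgeR tests passed, none had an unadjusted p under 0.05, and DESeq2 passed 0. Their log2 fold changes ran from -0.72 to 0.80, both ends set by Nectin2 at 3.3 to 6.0 CPM. In macrophages none of 42 passed with either tool, and 3 had an unadjusted p under 0.05, a count given without the share over all genes. Over all 9 members the median log2 fold change of GA-aFuc against Untreated was 0.18 in monocytes and 0.09 in macrophages, beside 0.01 over all genes tested in both.

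Cd80 and Cd86, the ligands of CD28 and CTLA-4, were highest in dendritic cells. Cd80 had a median of 566 CPM in mregDC (318 to 743), 235 CPM in cDC2, 182 CPM in monocytes and 59.1 CPM in macrophages, the last close to the 54.1 CPM of near-empty droplets. mregDC did not overlap with cDC2, while cDC2 and monocytes overlapped. Cd86 was 1200 CPM in cDC2 and 1078 CPM in mregDC, which overlapped, then 897 CPM in monocytes and 502 CPM in macrophages, against 11.5 CPM in NK cells and 263 CPM in near-empty droplets. In monocytes Cd80 lay between 150.4 CPM (N297A) and 192.5 CPM, and Cd86 between 869.1 and 1023.7 CPM, with treatments overlapping for Cd86 (TMM-scaled).

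Cd80 in macrophages was the nearest of the 7 to a difference. It was 71.0 and 62.8 CPM in GA-aFuc, 96.9 and 56.3 CPM in GITR/Syn GA-aFuc, 50.2 CPM in Untreated and 39 CPM in N297A (TMM-scaled). All 4 Fc-enhanced mice lay above the other 2, with 0.69 ± 0.23 on the log2 scale, an unadjusted p of 0.0154 and an edgeR adjusted p of 0.930. With no filter on low counts Cd80 passed in this contrast (0.69 ± 0.19, edgeR adjusted p = 0.0304). GITR/Syn GA-aFuc mouse 1, the highest for Cd80, was also the highest macrophage sample for Cd86, at 723.3 CPM against 444.2 to 558.2 CPM in the others.

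Icosl, the ligand of ICOS, was scarce in every type. Its median was 36.0 CPM in mregDC (10.3 to 63.6), 17.6 CPM in macrophages, 15.9 CPM in cDC2 and 13.9 CPM in monocytes, with overlapping ranges, and near-empty droplets had 14.6 CPM. In monocytes it lay between 9.8 and 16.3 CPM (TMM-scaled), and GA-aFuc against Untreated gave -0.44 ± 0.29, which did not pass.

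Lgals9 and Vsir were higher in macrophages and monocytes than in dendritic cells by median, unlike the 6 genes led by mregDC. Lgals9 was 251 CPM in macrophages (227 to 276) and 249 CPM in monocytes (220 to 291), against 131 CPM in cDC2, 40.9 CPM in mregDC and 185 CPM in near-empty droplets. Vsir was 152 CPM in macrophages (136 to 214) and 151 CPM in monocytes (140 to 181), against 36.1 CPM in cDC2, 18.4 CPM in NK cells and 131.5 CPM in near-empty droplets. Macrophages and monocytes overlapped for both genes, and neither type overlapped with cDC2. Lgals9 was lowest in GA-aFuc mouse 2 (218.2 CPM) and highest in the N297A mouse (299.7 CPM) in monocytes (TMM-scaled), and no contrast passed for either gene.

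Lgals9 also varied among monocyte clusters, from 128 CPM in cluster 42 to 570 CPM in cluster 49, which held 88 cells. Cluster 42 was taken as led by another class and left out in an alternative run. Vsir varied less, from 100.7 CPM in cluster 0, the monocyte cluster highest for both PD-1 ligands, to 220 CPM in cluster 54.

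Pvr and Nectin2 encode the nectin-family ligands of TIGIT and CD226. Pvr was 115 CPM in mregDC (43.2 to 170), 58.4 CPM in monocytes (55.7 to 66.5), 46.6 CPM in cDC2 and 27.2 CPM in macrophages (22.9 to 33.2), against 18.8 CPM in near-empty droplets. Monocytes and macrophages did not overlap for Pvr. In monocytes the GA-aFuc mice, at 62.3 and 66.0 CPM of Pvr, lay just above the N297A mouse at 62.1 CPM (TMM-scaled). The GITR/Syn GA-aFuc mice had 53.3 and 58.5 CPM, around the Untreated mouse at 56.6 CPM, and no contrast passed. Nectin2 was low, at 12.7 CPM in mregDC, 4.3 CPM in monocytes and 3.7 CPM in macrophages, equal to the 3.7 CPM of near-empty droplets.

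Genes of the same pathways gave few calls. Of 9 receptors of these ligands, 4 could be tested in monocytes and 6 in macrophages, and none passed in any contrast with edgeR or DESeq2, with 0 of 24 and 3 of 36 tests at an unadjusted p under 0.05. Of 12 other B7 and nectin family genes, 8 and 10 could be tested, and none passed with either tool (5 of 48 and 4 of 60 tests at an unadjusted p under 0.05). Of 15 genes known to control PD-L1 or PD-L2, all were tested in both types and none passed with edgeR, with 13 and 8 of 90 tests at an unadjusted p under 0.05. Their median log2 fold change of GA-aFuc against N297A was 0.20 in both types, beside 0.02 over all genes. The share of all genes at an unadjusted p under 0.05 is not given here. The counts at such a p are thus not read as particular to these lists.

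Socs1, an inhibitor of JAK and STAT signalling, was the listed gene that passed with edgeR, in cDC2. It was 261.6 and 295.8 CPM in GA-aFuc, 254.9 and 272.5 CPM in GITR/Syn GA-aFuc, 283.2 CPM in Untreated and 97.3 CPM in N297A (TMM-scaled). The N297A mouse alone was low. Its log2 difference from Untreated was -1.54 ± 0.30 (edgeR adjusted p = 0.0205), and GA-aFuc was above it by 1.52 ± 0.27 (edgeR adjusted p = 0.00584). Both calls ended with DESeq2 (adjusted p = 1 and 0.594) and with equal cells per mouse (edgeR adjusted p = 0.261 and 0.114). In macrophages DESeq2 passed 2 listed control genes, for N297A against Untreated: Socs1 (log2 fold change -1.53, DESeq2 adjusted p = 0.0221) and Irf1, a transcription factor induced by interferon gamma (-1.24, DESeq2 adjusted p = 0.0428). Cd274 was also low in macrophages of the N297A mouse. That contrast set 1 mouse against 1, and a link between these genes was not tested. The share of all macrophage genes that DESeq2 passed in it is not given here. The 2 DESeq2 calls are thus not read as particular to Socs1 and Irf1.

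Across 43 myeloid clusters of at least 30 cells, the members were set beside 8042 mouse genes by Pearson's r of log2(CPM + 1). The clusters share 1 library and differ in depth, so r is a description. The genes closest to Cd274 were Nampt (an enzyme of NAD synthesis, r = 0.87), Cnn3 (0.85) and Pdcd1lg2 (0.82). The genes closest to Pdcd1lg2 were Cd274 (0.82), the transcription factor Bhlhe40 (0.81) and the interferon-induced GTPase Tgtp1 (0.78). Chp1 led for Cd80 (0.90), Vps37b for Cd86 (0.89), Coq9 for Icosl (0.72), Rnpep for Lgals9 (0.91), Fgd4 and the M-CSF receptor Csf1r for Vsir (both 0.90), the phosphatase Dusp5 for Pvr (0.91) and Nol4l for Nectin2 (0.67).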

How the data were processed

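The matrix deposited by the authors holds raw UMI counts for each feature in each droplet. Cell Ranger 9.0.0 made it, per the file headers, and GRCh38 and GRCm39 are the builds in the submitters' processing notes. The assay reads 3′ ends, per the labels' protocols. The cell types, clusters and treatments come from the authors' deposited annotation. The sources used here do not say how they were assigned. Doublets were not called. Mice were taken from 12 runs of sorted barcodes, the last 6 being library 2, and the hashtag counts matched the run in 10476 of 10476 cells. No barcode was shared between mice of library 2. Whether the mice were housed or processed apart is not given. In fits of all 6 mice, p-values rest on the spread within the 2 treatments that had 2 mice. Each of those pairs held a mouse with high Xist and a mouse with low Xist.

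The members and lists were chosen with earlier results of these data known. Counts were summed per mouse and class and tested with edgeR 4.0.16 in R 4.3.3 (filterByExpr, TMM, glmQLFit, glmQLFTest) in 1 fit of 6 mice for each class. The fit left 2 residual degrees of freedom, and Benjamini-Hochberg adjusted p over all genes were held to 0.05. Counts of members or listed genes at an unadjusted p under 0.05 are given without the share over all genes. They are not read as particular to those genes. A lone mouse is taken to vary as mice of the paired treatments do. Dividing the absolute log2 fold change by the root of F gave the SE. DESeq2 1.42.0 was an alternative, as was a term for high Xist (over 100 CPM in macrophages). The fit was tested on simulated counts, where it made more false calls than the threshold allows. Always named were the 9 members, then listed genes that passed in a myeloid class and, of the 3 genes closest to each member over clusters, all for Cd274 and Pdcd1lg2 and the first or first pair for the others. Mrc1, Mgl2, Clec10a, Irf1, Xist and Uty were named after their values were seen.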

Additional observations from a re-analysis of the deposited data

How the results depend on the processing

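The monocyte calls of Pdcd1lg2 kept their direction and passed in every alternative run that could be made for their contrast. The alternatives were DESeq2, RLE size factors, no filter, a stricter filter, compared treatments alone, equal cells and cells without the highest 1% of UMIs. Others were clusters left out, mouse features alone, a term for high Xist and 1 mouse left out at a time. The lone N297A or Untreated mouse could not be left out of a contrast that uses it. The Fc-enhanced mean uses every treatment, so it had no run with compared treatments alone. Against Untreated the log2 fold change ran from 2.39 to 2.83, and the largest adjusted p was 0.0452, without GITR/Syn GA-aFuc replicate 1. The 2 monocyte calls of Cd274 passed in every run made too, 15 against N297A and 13 for the Fc-enhanced mean, with adjusted p up to 0.0393. The N297A mouse, through which Cd274 mainly differed, stayed in all of these runs. They thus cannot show whether the Cd274 calls depend on that mouse. Without a filter, members called in macrophages numbered 3 for the Fc-enhanced mean (Pdcd1lg2, Cd274 and Cd80), 2 for GA-aFuc against N297A, and 1 each for GA-aFuc against Untreated, GITR/Syn GA-aFuc against GA-aFuc and N297A against Untreated, where the fit of all libraries gave 0. With DESeq2, and also with a term for high Xist, these counts were 1, 2, 1, 1 and 1. The share of all genes called in each such run is not given here, which limits the reading of these counts. Leaving out 1 mouse moved them to 0 to 2, with calls only when a GA-aFuc mouse was left out; such fits have 1 residual degree of freedom. In dendritic cells summed, Pdcd1lg2 was called against Untreated with the compared treatments alone and with no filter (1 each), and leaving out a mouse gave 0 to 1 there and for GITR/Syn GA-aFuc against GA-aFuc. In cDC2, DESeq2 and equal cells each gave 0 calls in place of 1 for GA-aFuc against N297A and for the Fc-enhanced mean. The Xist term gave 1 against Untreated (Pdcd1lg2), 1 for GITR/Syn GA-aFuc against GA-aFuc (Pdcd1lg2) and 1 for N297A against Untreated (Cd274), in place of 0. The compared treatments alone gave 1 against Untreated, and leaving out a mouse gave 1 to 2 against N297A and 0 to 1 against Untreated and for N297A against Untreated. Of named values 2 reversed, both small: Cd274 in macrophages, GA-aFuc against Untreated, was -0.028 with the Xist term and ran from -0.055 (without GA-aFuc replicate 1) to 0.34 with a mouse left out, and Pdcd1lg2 in macrophages, GITR/Syn GA-aFuc against Untreated, from -0.34 (without GITR/Syn GA-aFuc replicate 1) to 0.68. The cause was not tested. At 1500 UMIs per cell, the share of monocytes with Pdcd1lg2 was 6.45 times higher in GA-aFuc than in Untreated, against 3.27 at 3000. The Xist term, which leaves 1 residual degree of freedom, the equal weight of clusters and the choice of the 11 monocyte clusters were made after seeing the data. No paired analysis was possible because the labels give the mice no replicate numbers that could link them across treatments. Depth limits Nectin2 and Icosl, whose levels lie near those of near-empty droplets.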

Other observations

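Among the members themselves, the closest pairs over the 43 myeloid clusters were Cd80 with Pvr (Pearson's r = 0.85 of log2(CPM + 1)), Cd80 with Cd86 (0.83) and Cd274 with Pdcd1lg2 (0.82). Lgals9 and Vsir went together at 0.61. Vsir went against Pdcd1lg2 (-0.59) and Cd80 (-0.48), and Lgals9 against Pdcd1lg2 (-0.55). The clusters share a library and were drawn from the same counts, so these values carry no test.

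Human features stand beside the mouse features in the reference of the counts. The human counterparts of the 9 members held 0 UMIs in the annotated cells, while the mouse Cd274 feature held 30506.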
